A study of Rattus norvegicus and Mus musculus with 34 samples.

Results

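Healing tissue of the rat lower jaw was followed between day 7 and day 14 after the nerve that gives it sensation had been cut. The 8 rats described here, 4 killed on each day, were taken by their labels from 34 samples, of which 23 are rats and the others cultured macrophages. All were male wild-type Sprague-Dawley rats of 6 to 8 weeks. In the sensory nerve- group a segment of the inferior alveolar nerve was cut out just before it enters the canal of the mandible, and in the same operation a standardized bone defect was made on the cheek side of the jaw at the molars. Rats of the sensory nerve+ group, used below for comparison with 4 rats per day, carried the same bone defect and kept the nerve. All rats received penicillin for 3 days, and rats with an infected wound had been left out by the study. The rats of the 2 days are different animals, so that a difference between days is a difference between groups of rats. The tissue is a piece of the healing periodontal region, labelled as mixed cells, and was sequenced in bulk. In such material fewer cells of a type and less RNA per cell cannot be told apart.

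A bone defect fills in an ordered way. Blood clot and inflammatory cells come first, fibroblasts then lay down a collagen-rich granulation tissue, and osteoblasts replace it with woven bone that osteoclasts later remodel. The inferior alveolar nerve is a mixed cable of sensory axons wrapped by Schwann cells. When axons are cut, the stump beyond the cut degenerates, and its Schwann cells give up their myelin program for a repair state marked by neurotrophin receptors and growth factors, before they can myelinate axons that grow back.

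The 8 libraries held between 14854598 and 18274706 counts. Genes of hemoglobin took 1.54% to 13.3% of the counts on day 7, and 0.257%, 26.2%, 31.2% and 48.2% on day 14, so that day 14 replicate 2 stood apart from its group. Over all genes tested it was closer in rank to the day 7 rats (median Spearman's rho 0.939) than to the other day 14 rats (0.914). Its labels were kept. The day 7 rats were deposited in a table of their own and the day 14 rats in a table shared with all other rats, so day and table cannot be told apart. Of 15858 genes, 1 was higher and 0 were lower in all 4 rats of the separate table than in every other rat. For the sensory nerve- day 14 rats of the shared table these counts were 27 and 71. For sensory nerve+ rats, also in the shared table, they were 1 and 0 on day 7, and 3 and 4 on day 14. Low counts thus occur in the shared table too, and an effect of the table was not tested.

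Across the transcriptome the 2 days differed broadly but with wide spread between rats. With an adjusted p threshold of 0.05, edgeR's quasi-likelihood test found 2 genes among 14447 (0.0138%), and both rose. At an unadjusted p under 0.05 it marked 1800 genes higher on day 14 (12.5%) and 1597 lower (11.1%). The 4 rats of day 14 were all above the 4 of day 7 in 841 genes (5.82%), and all below in 939 (6.50%). DESeq2 on the same counts called 1138 genes higher (7.88%) and 853 lower (5.90%). These shares of all genes are the ones to set beside each count of list members below. The edgeR count fell to 0 without day 14 replicate 1 or 4 or day 7 replicate 2 or 3. It was 21 without day 7 replicate 1, 6 without day 14 replicate 3, and 814 without day 14 replicate 2. Scaling by library totals gave 3 higher and 18 lower calls and moved the median of all genes from -0.01 to -0.40 on the log2 scale. Fold changes below are therefore relative to the TMM scaling. They are given as log2 of day 14 over day 7 with their standard error, and levels as CPM, the counts of a gene relative to the scaled total of its library, on a scale fitted to all 23 rats.

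The 2 genes that passed the test were Rhbdl2 and Mbp. Rhbdl2, which encodes an intramembrane protease of the rhomboid family, measured 4.05, 5.31, 4.59 and 6.75 CPM on day 7, and 29.9, 22.3, 26.6 and 28.9 CPM on day 14. The lowest rat of day 14 was more than 3 times the highest of day 7, and the gene rose by 2.39 ± 0.21 (edgeR adjusted p = 0.0209). Mbp, which encodes a main protein of compact myelin, measured 6.80, 8.40, 7.72 and 11.2 CPM on day 7, against 40.0, 50.8, 39.3 and 33.7 CPM on day 14. It rose by 2.27 ± 0.21 with the same adjusted p, again without overlap. The Mbp locus also yields golli transcripts, which are made outside the nervous system, lymphoid cells included, and gene-level counts do not separate them.

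The next genes in order of p, with rats of the 2 days fully apart, had an edgeR adjusted p of 0.104 and were called by DESeq2. On the higher side stood Rab11fip4, an effector of endosomal recycling (2.88 ± 0.37), Lgals9, a galectin made by immune and stromal cells (1.55 ± 0.20), Rgs3, a brake on G-protein signalling (1.17 ± 0.16), Pls1, an actin-bundling plastin (2.42 ± 0.33), and Fam78b (1.75 ± 0.27). L1cam, an adhesion molecule of axons and of Schwann cells that do not myelinate, lay between 1.47 and 3.52 CPM on day 7, and between 9.99 and 14.3 CPM on day 14. Ostn, which encodes the bone and muscle hormone osteocrin, lay between 0.394 and 1.03 CPM and then between 2.96 and 4.75 CPM. Gfi1, a transcriptional repressor of developing blood cells, lay between 0.257 and 0.506 CPM and then between 2.21 and 6.22 CPM. These 8 genes are known from trafficking, signalling, neural, bone and blood cell functions.

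On the lower side Gramd2b (-1.27 ± 0.17) and Naa20, the catalytic subunit of an N-terminal acetyltransferase (-0.89 ± 0.12), came first in order of p. Msr1, a scavenger receptor of macrophages, measured 25.7, 112, 116 and 95.5 CPM on day 7, and 10.6, 14.0, 5.96 and 8.70 CPM on day 14 (-3.14 ± 0.49). Igf2r, the receptor that sorts lysosomal enzymes, lay between 350 and 450 CPM and then between 126 and 192 CPM. Rbpj, the DNA-binding factor of the Notch pathway, had -1.04 ± 0.16, and Dtx4, a deltex protein of the same pathway, had -0.86 ± 0.14. Sema3c, a secreted guidance cue, had -1.96 ± 0.31. All of these were lower in every rat of day 14. Mreg, a melanosome and lysosome transport factor, had -2.21 ± 0.36 and Kctd4 -2.50 ± 0.41. Cfi, a complement regulator, lay between 2.39 and 6.68 CPM on day 7 and between 0.0818 and 0.552 CPM on day 14, where 3 counts correspond to 0.169 to 0.331 CPM.

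**Figure D1:**
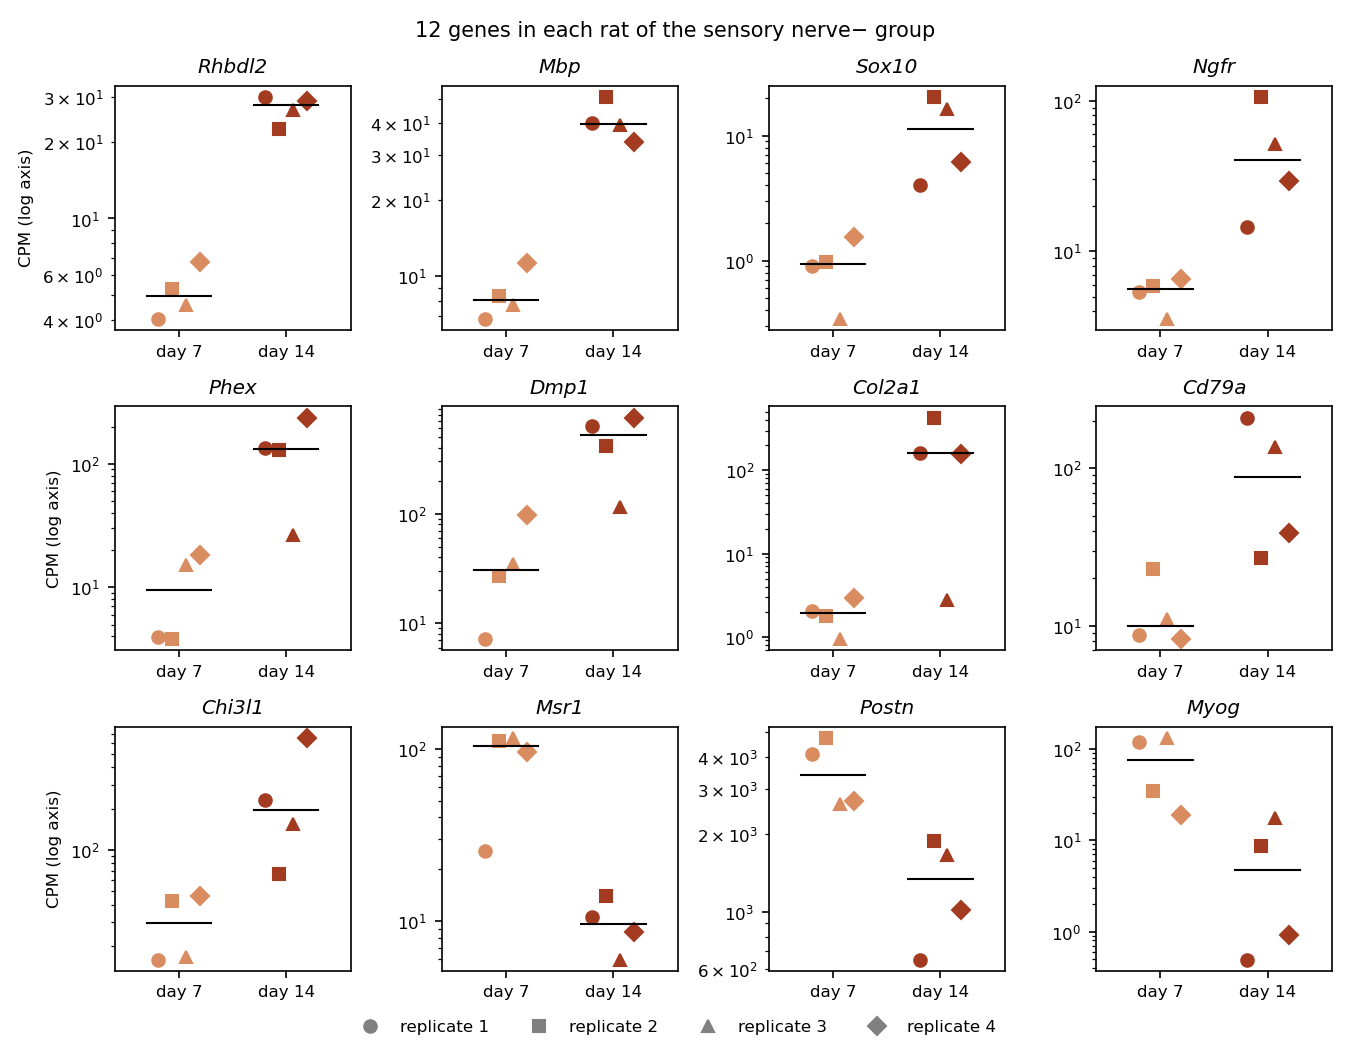
Level of 12 genes in each of the 8 sensory nerve- rats, in CPM on a log axis that differs between panels; each symbol is 1 rat, its shape the replicate number, and the line is the group median. Rhbdl2 and Mbp show narrow groups far apart, whereas Col2a1 reached 158 CPM or more in 3 day 14 rats and 2.76 CPM in replicate 3.

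Genes of the nerve were examined by lists of Schwann cell and axon genes. Of 15 myelinating Schwann cell genes, 9 passed the filter on low counts. At an unadjusted p under 0.05, 4 of these 9 were higher and 2 lower on day 14, where 12.5% and 11.1% of all genes were. In 3 the rats of day 14 were all above those of day 7 and in 1 all below, and DESeq2 called 4 higher and 0 lower. The median of the 9 was 1.15, where the median of all genes was -0.01. The list median, over the members that then passed the filter, was 0.23 without day 14 replicate 3 and 2.17 without day 7 replicate 1. Sox10, the transcription factor that defines the Schwann lineage, measured 0.900, 0.976, 0.342 and 1.54 CPM on day 7, and 4.01, 20.4, 16.3 and 6.20 CPM on day 14 (3.65 ± 0.65). All 4 rats of day 14 were above those of day 7. The structural myelin genes did not move together. Mbp rose, as given above, whereas Pmp22, a myelin protein that fibroblasts also make, had a fold change below 0 and lay between 72.0 and 151 CPM on day 7 and between 29.1 and 78.1 CPM on day 14 (-1.01 ± 0.36).

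The repair program of Schwann cells and the neurotrophic factors were higher on day 14 in most measured members. Of 14 genes tested from a list of 19, 8 were higher and 1 lower at an unadjusted p under 0.05, 4 did not overlap, all 4 higher, and DESeq2 called 8 higher and 1 lower. The list median was 1.70. Ngfr, the p75 neurotrophin receptor of repair Schwann cells, measured 5.34, 5.91, 3.57 and 6.56 CPM on day 7, and 14.6, 106, 51.8 and 29.3 CPM on day 14 (3.24 ± 0.58). Every rat of day 14 was above every rat of day 7. Gdnf, a growth factor for sensory and motor neurons, had 2.26 ± 0.67 with overlapping rats.

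Genes of axons and nociceptors were near the limit of detection. The cell bodies of these neurons lie in the trigeminal ganglion, outside the sampled tissue. Only 7 of 18 passed the filter, Scn9a and Calca not among them, and 2 were lower at an unadjusted p under 0.05, both called by DESeq2. Nefh, the heavy neurofilament, lay between 0.586 and 2.93 CPM on day 7 and between 0.0564 and 0.463 CPM on day 14, without overlap. Trpv1, the capsaicin receptor, lay between 1.41 and 5.00 CPM and then between 0.409 and 1.44 CPM.

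Osteoblast genes were the bone group with the most members higher on day 14. Of 23 tested from a list of 24, 14 were higher and 1 lower at an unadjusted p under 0.05. In 6 the rats of day 14 were all above those of day 7 and in 1 all below, and DESeq2 called 13 higher and 0 lower. The median was 2.15. The mean log2 level of the list was 4.52, 5.99, 6.12 and 5.93 on day 7, against 7.00, 7.57, 6.20 and 7.23 on day 14. The groups did not overlap, but day 14 replicate 3 was close to the 3 highest rats of day 7. By summed CPM the groups overlapped, at 11590 to 51750 CPM on day 7 and 25450 to 72730 CPM on day 14.

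The named members act at successive steps of osteoblast maturation. Runx2, the transcription factor that commits cells to the lineage, measured 24.5, 82.9, 74.3 and 90.4 CPM on day 7, and 118, 224, 66.2 and 157 CPM on day 14 (1.06 ± 0.47). Sp7, which acts after it, had 2.40 ± 0.81, and Alpl, the alkaline phosphatase of mineralizing cells, had 2.57 ± 0.78, both with overlapping rats. Phex, a peptidase of late osteoblasts and osteocytes, measured 3.99, 3.79, 15.2 and 18.3 CPM and then 134, 129, 26.4 and 237 CPM, without overlap (3.68 ± 0.79). Vdr, the vitamin D receptor, had 2.83 ± 0.61. None of these passed the edgeR threshold, with adjusted p from 0.104 for Phex to 0.215 for Runx2.

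Osteocytes are osteoblasts that have been buried in the matrix they made. Among 10 genes tested, 4 were higher and 2 lower at an unadjusted p under 0.05, and the list median (-0.31) and mean (0.81) differ in sign. Of the 4 higher members 3 are named here. Dmp1, a mineral-binding matrix protein, measured 7.14, 26.8, 34.9 and 97.2 CPM on day 7, and 629, 418, 116 and 751 CPM on day 14, without overlap (3.54 ± 0.85). Mepe, another phosphoprotein of osteocyte matrix, lay between 2.14 and 14.6 CPM and then between 14.5 and 256 CPM. Sost, which encodes the Wnt inhibitor sclerostin of mature osteocytes, was low on both days, from 0.0562 to 1.16 CPM and then from 0.662 to 5.46 CPM. Pdpn, a membrane protein of early osteocytes that stromal cells and lymphatic vessels also carry, was lower in all 4 day 14 rats, at 23.2 to 37.5 CPM against 46.8 to 79.7 CPM (-1.07 ± 0.23).

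Osteoclast genes did not separate the days. Of 19 tested, 2 were higher and 0 lower at an unadjusted p under 0.05, 0 did not overlap, DESeq2 called 0, and the median of 0.26 ran from -0.03 without day 7 replicate 1 to 0.62 without day 7 replicate 4. Acp5, the tartrate-resistant acid phosphatase, measured 127, 626, 673 and 2543 CPM on day 7, and 1694, 2637, 208 and 3113 CPM on day 14. Ctsk, the protease that digests bone collagen, measured 538, 2133, 3192 and 10920 CPM and then 3731, 7548, 703 and 7031 CPM. Both genes were lowest on day 7 in replicate 1 and lowest on day 14 in replicate 3, and the spread within each day was wider than the difference between days (0.96 ± 0.96 for Acp5, 0.19 ± 0.95 for Ctsk). Without day 14 replicate 2 the Ctsk value was -0.12. Calcr, the calcitonin receptor, had 0.51 ± 0.75. Oscar, a co-stimulatory receptor (1.86 ± 0.73), and Car2, the carbonic anhydrase that supplies acid and that red cells also carry (1.83 ± 0.76), had the smallest p of the list, with overlapping rats.

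Cartilage genes were high on day 14 in some rats. Of 19, 13 were tested, 4 were higher and 1 lower at an unadjusted p under 0.05, where 12.5% and 11.1% of all genes were. Of the 13, 0 did not overlap, and DESeq2 called 3 higher. Col2a1, the fibrillar collagen of cartilage, measured 2.02, 1.79, 0.928 and 2.89 CPM on day 7, and 162, 432, 2.76 and 158 CPM on day 14 (6.64 ± 1.27). Col10a1, the collagen of hypertrophic chondrocytes, measured 0.281, 0.271, 1.12 and 0.643 CPM and then 27.4, 52.1, 0.883 and 3.79 CPM. For both collagens day 14 replicate 3 stood at the level of day 7. Sox9, the transcription factor of chondrocytes, did not follow, at 2.59 to 7.52 CPM and then 1.22 to 8.12 CPM, nor did Acan, the proteoglycan of cartilage, at 15.9 to 301 CPM and then 16.8 to 124 CPM. The Col2a1 range on day 3 after nerve transection was 0.0535 to 1.82 CPM.

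Wnt signalling drives osteoblast formation, and several secreted inhibitors restrain it. Of 16 list members tested, 3 were higher and 0 lower at an unadjusted p under 0.05, the same number that DESeq2 called higher, and the median was 0.29, or -0.34 without day 14 replicate 2. Wif1, a secreted Wnt inhibitor, measured 4.61, 8.56, 19.9 and 12.1 CPM on day 7, and 64.2, 301, 18.3 and 91.5 CPM on day 14 (3.39 ± 0.84). Dkk1, an inhibitor that binds the Wnt co-receptor, measured 0.506, 0.163, 2.64 and 2.57 CPM and then 25.9, 14.2, 2.21 and 37.4 CPM (3.76 ± 1.02). In both inhibitors replicate 3 was the day 14 rat that overlapped with day 7. The ligand gene Wnt10b had 1.06 ± 0.60 and Sfrp2, a further inhibitor, -0.47 ± 0.75.

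Fibroblast and ligament genes lay on the other side. All 18 tested members of the periodontal ligament and fibroblast list had a fold change below 0. At an unadjusted p under 0.05, 6 were lower and 0 higher, 5 were lower without overlap, and DESeq2 called 6 lower. The median was -0.68. Postn, periostin, the matrix protein that marks the periodontal ligament, measured 4075, 4717, 2612 and 2689 CPM on day 7, and 650, 1878, 1654 and 1016 CPM on day 14 (-1.44 ± 0.41). Scx, the transcription factor of tendon and ligament cells, measured 22.3, 10.9, 28.0 and 8.74 CPM and then 1.80, 5.58, 6.51 and 2.41 CPM (-2.11 ± 0.53). Both were lower in every rat of day 14, as was Aspn, asporin, a small proteoglycan of the ligament (-1.67 ± 0.58). Thbs4, a tendon thrombospondin, had -1.61 ± 0.41, with day 14 replicate 3 at 404 CPM inside the day 7 range.

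Of 16 matrix collagens, 3 were lower and 0 higher at an unadjusted p under 0.05. The same 3 did not overlap and were called by DESeq2, and the median of -0.45 ran from -0.67 without day 14 replicate 3 to -0.16 without day 7 replicate 2. Col3a1, the collagen of young granulation tissue, measured 7255, 17450, 9543 and 7652 CPM on day 7, and 2800, 6066, 5367 and 4534 CPM on day 14 (-1.16 ± 0.48). Col5a3 had -1.73 ± 0.46 and Col6a3, a chain of the beaded filaments around cells, -1.25 ± 0.34. Col6a1 (-0.78 ± 0.37) and Col5a1 (-0.43 ± 0.48) overlapped.

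Among 20 genes of matrix degradation, 9 were lower and 2 higher at an unadjusted p under 0.05, and the median was -0.50, or -0.32 without day 14 replicate 1. DESeq2 called 6 lower and 1 higher. The 2 members without overlap, both lower, encode lysosomal proteases, while other cathepsin genes of the list overlapped. Ctsl, cathepsin L, measured 398, 884, 1080 and 925 CPM and then 148, 317, 279 and 181 CPM (-1.83 ± 0.38), and Lgmn, legumain, measured 325, 959, 1003 and 1010 CPM and then 248, 320, 192 and 224 CPM (-1.74 ± 0.38). Mmp14, the membrane-bound collagenase of stromal cells, had -1.13 ± 0.34 and Mmp3, stromelysin, -2.83 ± 1.05. Mmp13, the collagenase of hypertrophic cartilage and osteoblasts, lay on the other side, at 25.1, 536, 286 and 752 CPM and then 1485, 2464, 316 and 2224 CPM (2.03 ± 0.94), with day 14 replicate 3 again inside the day 7 range.

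**Figure D2:**
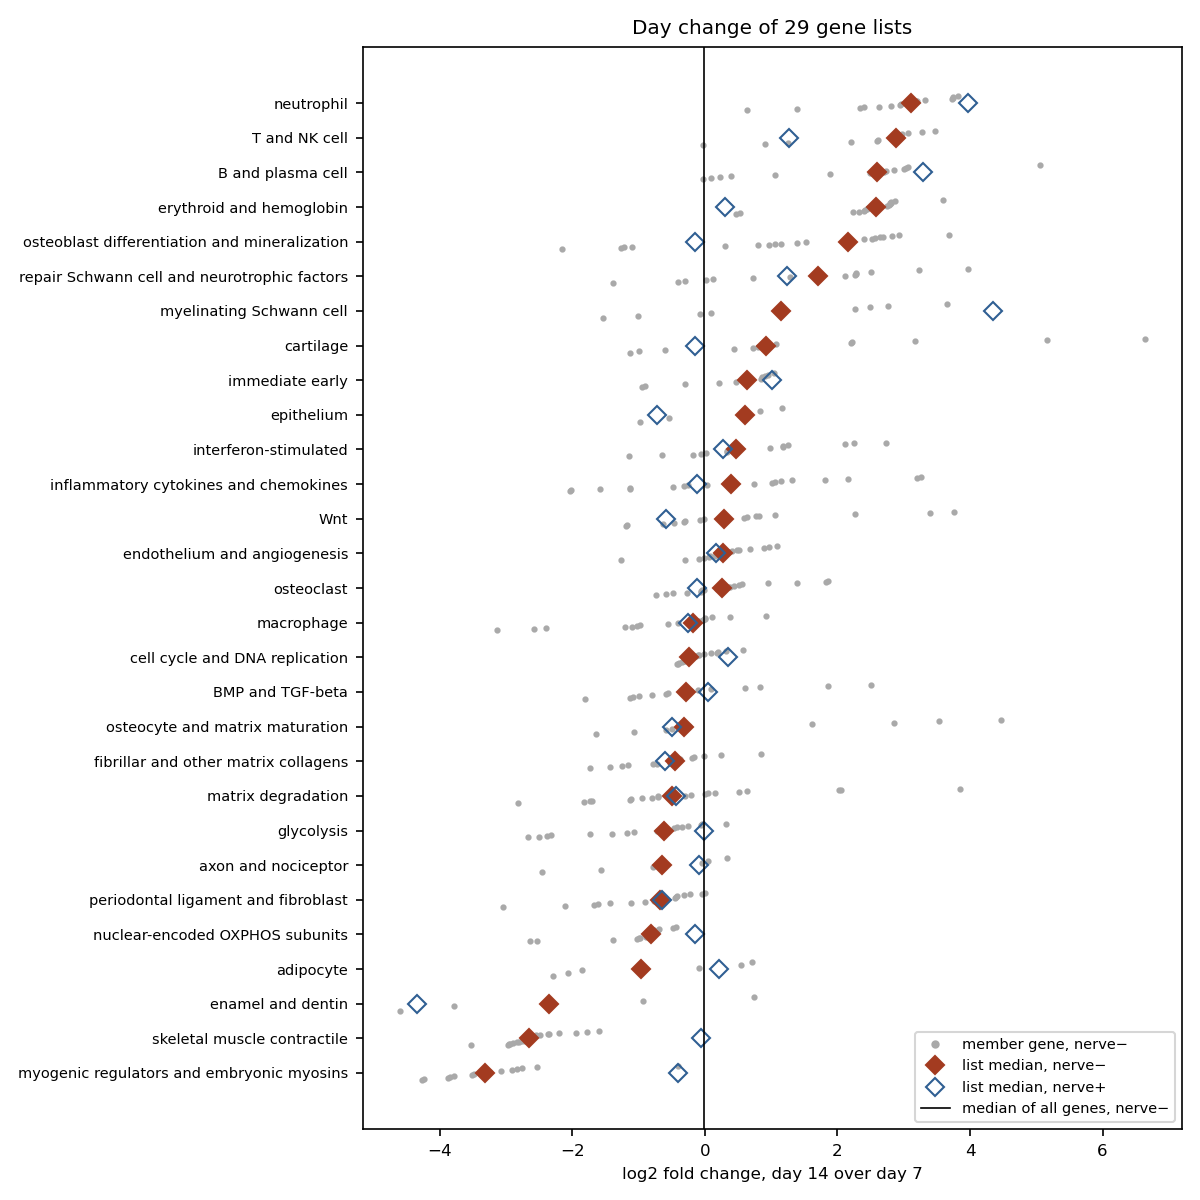
Log2 fold change of day 14 over day 7 in the sensory nerve- rats for every tested member (grey points) of 29 gene lists, with the list medians in sensory nerve- rats (filled diamonds) and sensory nerve+ rats (open diamonds). The medians of sensory nerve- rats ran from -3.31 for myogenic regulators to 3.10 for neutrophil genes, and the line marks the median of all genes at -0.01.

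Muscle genes gave the lowest medians of all lists. The promoters of 3 of them are shown because their E-box, CAGCTG in capitals, is a sequence that MyoD family factors bind, and because the regulators of that family were measured in the same rats. They are the 250 bases before the RefSeq start site, 5′ to 3′ on the coding strand, build GRCr8. Acta1, skeletal actin, is at chr19:68784195-68784444 on the minus strand, Ckm, muscle creatine kinase, at chr1:88189211-88189460 on the plus strand, and Myh4, the fast IIb myosin, at chr10:52421898-52422147 on the plus strand.
Acta1: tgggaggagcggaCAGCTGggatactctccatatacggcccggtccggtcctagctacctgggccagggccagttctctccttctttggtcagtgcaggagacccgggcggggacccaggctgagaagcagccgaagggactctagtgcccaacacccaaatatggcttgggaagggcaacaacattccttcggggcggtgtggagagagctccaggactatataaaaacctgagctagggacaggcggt
Ckm: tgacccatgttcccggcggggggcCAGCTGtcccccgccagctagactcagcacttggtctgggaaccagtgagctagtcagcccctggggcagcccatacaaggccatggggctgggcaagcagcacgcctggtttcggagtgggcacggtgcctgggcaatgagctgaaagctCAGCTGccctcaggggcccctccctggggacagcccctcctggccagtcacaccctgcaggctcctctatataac
Myh4: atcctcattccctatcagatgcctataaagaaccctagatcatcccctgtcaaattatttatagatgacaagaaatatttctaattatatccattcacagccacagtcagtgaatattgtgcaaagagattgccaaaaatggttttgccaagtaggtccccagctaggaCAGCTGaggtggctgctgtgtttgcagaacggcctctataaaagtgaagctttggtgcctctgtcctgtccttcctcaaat
The first base of the motif lies 237 bases before the start in Acta1, 226 and 75 bases before it in Ckm, and 81 bases before it in Myh4. CAGCTG reads the same on both strands and was found in 5 of 13 myogenic and 7 of 23 contractile promoters matched by symbol, and in 12.0% of 33469 promoters of that length. It was also found in 4 of 8 adipocyte promoters. Among lists with a median above 0, it was found in 4 of 11 B and plasma cell and 4 of 13 T and NK cell promoters. Of erythroid promoters 4 of 14 had it, and of neutrophil promoters 0 of 17. These 3 promoters were picked after the motif had been searched, and a match is a run of letters, not a measured binding site.

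Transcripts of muscle fibres were lower on day 14 in most rats, with wide spread and no call by edgeR. All 25 tested contractile genes had a fold change below 0, with 7 lower at an unadjusted p under 0.05, 1 lower without overlap, 4 called lower by DESeq2, and a median of -2.65. That median was -4.27 without day 14 replicate 3 and -1.23 without day 7 replicate 1. Acta1 measured 13500, 1260, 2026 and 482 CPM on day 7, and 107, 509, 2642 and 112 CPM on day 14. Ckm measured 5459, 616, 546 and 194 CPM and then 30.3, 137, 962 and 37.8 CPM. The highest day 7 rat was replicate 1 and the highest day 14 rat was replicate 3, and both genes overlapped. Mylpf, a light chain of fast myosin, had -2.48 ± 1.18, and Tnnc1, troponin C of slow and cardiac muscle, -2.97 ± 0.92. Myh4 measured 223, 44.9, 185 and 50.6 CPM and then 0.491, 11.2, 31.2 and 1.39 CPM, and was lower in every day 14 rat.

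Regulators of muscle formation were lower together. All 15 tested genes of the myogenic list had a fold change below 0, 14 of them at an unadjusted p under 0.05 and 6 without overlap. DESeq2 called 10 lower, and the median was -3.31. Myog, myogenin, which turns on muscle differentiation, measured 118, 34.8, 131 and 18.7 CPM on day 7, and 0.491, 8.63, 17.4 and 0.925 CPM on day 14, without overlap (-3.48 ± 1.11, edgeR adjusted p = 0.138). Myod1, the founding member of the family, measured 51.5, 6.78, 22.6 and 5.53 CPM and then 0, 3.78, 6.62 and 0 CPM. Pax7, the factor of muscle stem cells, measured 30.1, 6.18, 22.8 and 1.74 CPM and then 0.0818, 1.13, 4.31 and 0 CPM. Neither Myod1 nor Pax7 separated the days fully. Mymx, which encodes the fusion micropeptide myomixer, measured 5.29, 4.50, 38.7 and 3.79 CPM and then 0.0818, 1.07, 1.66 and 0 CPM. Replicates 2 and 3 carried nearly all of these transcripts on day 14. On day 3 after transection the summed level of the contractile list was 174 to 1224 CPM, below the 4189 to 71370 CPM of day 7, and on day 14 it was 446 to 13730 CPM.

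Genes of energy metabolism were lower on day 14 as well. All 20 tested nuclear-encoded subunits of oxidative phosphorylation had a fold change below 0, 14 at an unadjusted p under 0.05 and 9 without overlap, with 2 called by DESeq2 and a median of -0.82, which was -0.38 without day 7 replicate 1. Of 19 glycolysis genes 7 were lower at an unadjusted p under 0.05 and 4 did not overlap, with a median of -0.62. Day 7 replicate 1, the rat with the highest contractile level (71370 CPM summed), also had the highest summed level of both lists, 9250 CPM of oxidative phosphorylation and 14360 CPM of glycolysis against at most 3836 and 6482 CPM in the other day 7 rats. The part of muscle in these lists was not tested.

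Blood and marrow genes were higher on day 14 in most rats. Hba-a1 measured 6996, 41290, 7279 and 69670 CPM on day 7, and 157300, 1113, 471400 and 221700 CPM on day 14, and Hbb 4227, 26590, 4369 and 43150 CPM and then 94740, 585, 306100 and 138500 CPM. Near-identical hemoglobin genes share reads, so that the split among them is uncertain. In 3 rats of day 14 both genes were above all day 7 rats and in replicate 2 below all of them. All 18 erythroid genes had a fold change above 0, with a median of 2.58, but 1 was higher at an unadjusted p under 0.05. Genes of immature red cells behaved alike. Alas2, which starts heme synthesis in erythroblasts, had 2.74 ± 1.48, Klf1, the erythroid transcription factor, 2.55 ± 1.17, and Rhag, a red cell membrane glycoprotein, 3.60 ± 1.15.

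**Figure D3:**
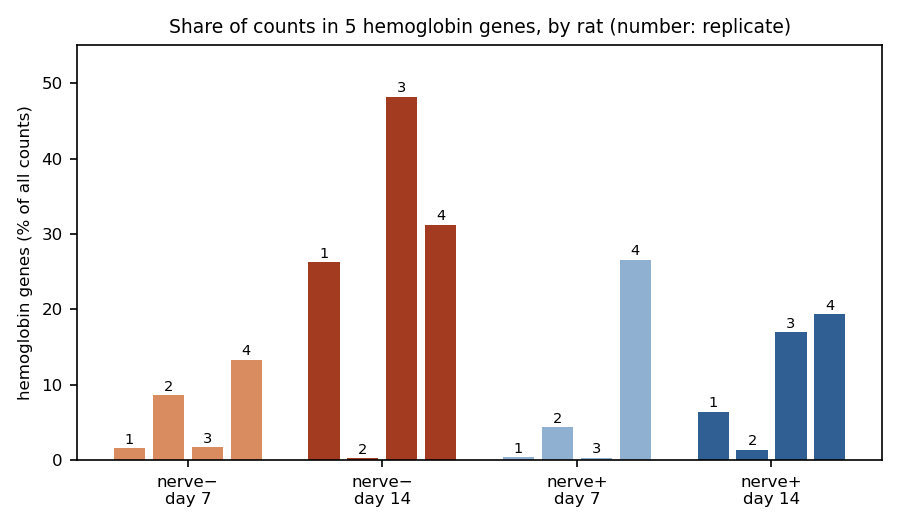
Share of all counts taken by 5 hemoglobin genes in each rat, as percent, by nerve group and day, with the replicate number above each bar. In sensory nerve- rats on day 14 the share was 26.2%, 0.257%, 48.2% and 31.2%, and in sensory nerve+ rats on day 14 it ran from 1.33% to 19.4%.

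Neutrophil genes had the highest median of all lists, 3.10. Of 17 tested from a list of 20, 15 were higher and 0 lower at an unadjusted p under 0.05, 4 were higher without overlap, and DESeq2 called 14 higher. S100a8 and S100a9, the subunits of calprotectin, had 3.73 ± 1.13 and 3.82 ± 1.29. S100a9 measured 17.0, 146, 8.31 and 71.3 CPM on day 7, and 512, 53.0, 344 and 2476 CPM on day 14, where replicate 2 was inside the day 7 range. Chi3l1, a chitinase-like protein of granules that other cells also make, measured 15.9, 42.5, 16.8 and 46.1 CPM and then 233, 66.5, 155 and 654 CPM, without overlap (3.20 ± 0.74). Fcnb, a ficolin of marrow myeloid cells (2.39 ± 0.53), and Mpo, the myeloperoxidase of promyelocytes (3.18 ± 1.07), did not overlap either.

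Lymphoid genes were higher on day 14. Of 14 B and plasma cell genes tested, 9 were higher and 0 lower at an unadjusted p under 0.05, 5 were higher without overlap, DESeq2 called 9, and the median was 2.60. Cd79a, a signalling chain of the B cell receptor, measured 8.77, 22.8, 11.1 and 8.23 CPM on day 7, and 209, 26.8, 137 and 39.0 CPM on day 14 (3.03 ± 0.71). Its partner Cd79b had 2.85 ± 0.70 and Pou2af1, a B cell coactivator, 3.06 ± 0.71, neither with overlap. Rag1, the recombinase of B and T cell precursors, was at or below 0.163 CPM in all day 7 rats, no more than the value of 3 counts, and measured 9.41, 0.620, 4.75 and 1.02 CPM on day 14. Precursors that carry Rag1 are known from marrow and thymus.

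Of 15 T and NK cell genes, 12 were higher and 0 lower at an unadjusted p under 0.05, 5 were higher without overlap, DESeq2 called 12, and the median was 2.89. Cd3e, a chain of the T cell receptor complex, measured 4.89, 12.9, 2.54 and 7.13 CPM and then 100, 9.75, 57.8 and 39.5 CPM, with day 14 replicate 2 inside the day 7 range. Cd3d (2.94 ± 0.71) and Cd3g (2.97 ± 0.80), chains of the same complex, were alike in size. Nkg7, a granule protein of cytotoxic cells (2.89 ± 0.63), and Il2rb, a chain of the receptors for interleukins 2 and 15 (2.95 ± 0.67), did not overlap. In the erythroid, neutrophil, B and T cell lists replicate 2 had the lowest mean level of the day 14 rats, and without it the medians were 3.00, 3.30, 2.60 and 3.21. The part of blood or marrow in the samples was not tested.

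Macrophage genes were not higher on day 14 as a list. Of 19 tested, 16 had a fold change below 0 and 3 above 0. At an unadjusted p under 0.05, 0 were higher and 4 lower. In 3 the rats of day 14 were all below those of day 7, and DESeq2 called 3 lower. The mean was -0.66. The median of -0.19 ran from -0.48 without day 14 replicate 2 to -0.09 without day 7 replicate 3. Csf1r, the receptor on which macrophages depend, measured 156, 554, 628 and 870 CPM on day 7, and 599, 588, 294 and 683 CPM on day 14 (-0.02 ± 0.49). Adgre1, the F4/80 antigen, had -0.19 ± 0.26 and Cd68, a lysosomal glycoprotein, -1.11 ± 0.54. Those without overlap were the scavenger Msr1, given above, Gpnmb and 1 other gene. Gpnmb, a lysosomal membrane protein of lipid-laden macrophages and of osteoclasts, measured 1927, 4263, 9456 and 6231 CPM on day 7, and 732, 1136, 612 and 1169 CPM on day 14 (-2.58 ± 0.54).

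Inflammatory mediators were mixed, with 4 higher and 4 lower of 18 at an unadjusted p under 0.05 and a median of 0.39, which ran from -0.02 without day 14 replicate 2 to 1.10 without day 7 replicate 4. Il1b, which encodes interleukin 1 beta, measured 12.1, 32.2, 5.67 and 21.5 CPM on day 7, and 210, 53.5, 94.8 and 289 CPM on day 14, without overlap (3.20 ± 0.68). Ptgs2, the inducible cyclooxygenase, lay between 0.244 and 0.813 CPM and then between 1.64 and 2.25 CPM, also without overlap. Tnf lay between 0.705 and 1.86 CPM and then between 0.789 and 3.98 CPM. Il6 was at or below 1.93 CPM in 7 rats and at 10.8 CPM in day 14 replicate 3, so that the sign of its fold change rests on that rat.

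**Figure D4:**
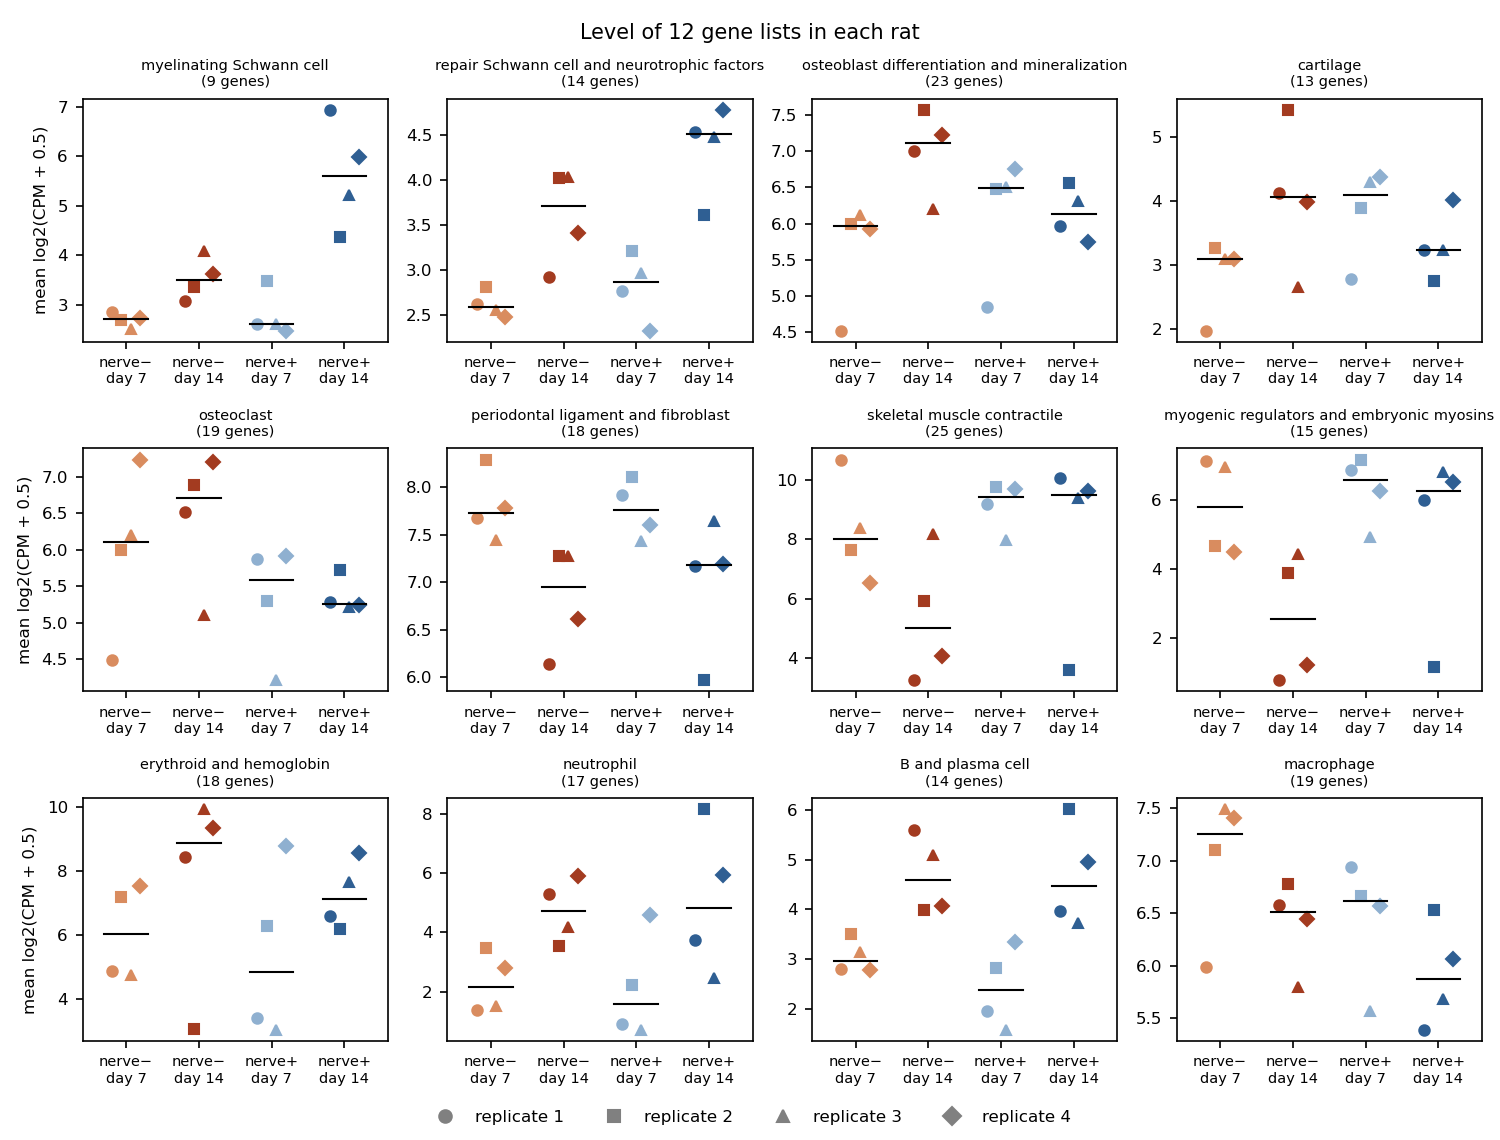
Mean log2(CPM + 0.5) over the tested genes of 12 lists in each rat, with sensory nerve- rats of day 7 and day 14 beside sensory nerve+ rats of the same days; shapes are replicate numbers and lines group medians. By this mean, osteoblast and myelin levels of the sensory nerve- rats did not overlap between the days, whereas by summed CPM both did. Contractile muscle levels in sensory nerve- rats on day 14 ran from 3.26 to 8.19.

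The other lists were counted without naming genes, at an unadjusted p under 0.05, where 12.5% of all genes were higher and 11.1% lower. Of 4 enamel and dentin genes tested from 11, 3 were lower at an unadjusted p under 0.05, and of 5 epithelial genes from 22, 1 was higher and 1 lower. Of 16 interferon-stimulated genes 2 were higher and 1 lower, and of 20 cell cycle genes 0 were higher and 0 lower, with medians of 0.47 and -0.25. Of 19 endothelial genes 1 was higher, and of 16 BMP and TGF-beta genes 2 were higher and 3 lower. Of 6 adipocyte genes 2 were lower, and of 11 immediate early genes 3 were higher. None of 12 salivary gland genes passed the filter.

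The same days were compared in the sensory nerve+ rats, where both days lie in the shared table. There edgeR called 3 of 14867 genes and marked 1401 (9.42%) at an unadjusted p under 0.05. The difference of the day changes between the 2 nerve groups gave no call among 15291 genes with edgeR, whose smallest adjusted p was 0.925, or with DESeq2, and 586 genes (3.83%) had an unadjusted p under 0.05. No gene below is therefore shown to differ between the nerve groups in its day change. Only the sensory nerve- day 7 rats lie in the separate table. A difference in day change between the nerve groups thus cannot be told apart from a difference between tables.

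The myelin genes were the list with the largest share at that level, 10 of 15, all with the smaller day change in sensory nerve- rats. Only 9 of the 15 passed the filter on low counts in sensory nerve- rats alone, whereas all 15 passed in sensory nerve+ rats. The others entered through their level with the nerve, so the filter bears on their direction. Of the 9 genes tested in both groups, 0 had the larger change without the nerve, and their medians were 1.15 in sensory nerve- and 2.76 in sensory nerve+ rats. Mbp rose in sensory nerve- rats. On day 7 it lay between 2.69 and 9.69 CPM in sensory nerve+ rats, against 6.80 to 11.2 CPM in sensory nerve- rats. The mean log2 level of the myelin list on day 7 was 2.48 to 3.49 with the nerve and 2.52 to 2.85 without it. On day 14 Mbp reached 66.2 to 398 CPM in sensory nerve+ rats, above each sensory nerve- rat of that day. On day 3 Mbp lay between 5.08 and 291 CPM in sensory nerve- rats. Its change from day 7 to day 14 differed by -2.36 ± 0.70 between the nerve groups. Pmp22 differed by -2.62 ± 0.77. Sox10, in contrast, had a day change of 4.34 ± 0.71 with the nerve, and the difference was -0.67 ± 0.95. Ngfr had 2.66 ± 0.88 with the nerve, and 2 of 16 repair genes reached an unadjusted p under 0.05 for the difference. Cldn19, a claudin of the myelin sheath, had the smallest p among the genes below 0 (-5.69 ± 1.33), at 3.40 to 43.8 CPM on day 14 with the nerve and 0.0818 to 1.44 CPM without it. Cldn19 did not pass the filter in sensory nerve- rats alone. Slc16a1, a lactate transporter (-1.11 ± 0.30), and Kif1a, an axonal transport motor (-3.20 ± 0.91), came next in order of p.

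Osteoblast genes leaned the other way, with 10 of 24 at an unadjusted p under 0.05, all with the larger day change in sensory nerve- rats. Among the 10 is Msx2, named here after its values were seen, which passed the filter on low counts in neither nerve group alone. It reached 203 CPM in a sensory nerve+ rat of day 7, so the filter bears on its direction. In the 23 tested in both groups the median was 2.15 without the nerve and -0.15 with it, and 21 had the larger value without it. Alpl lay between 42.7 and 508 CPM on day 7 and between 76.8 and 238 CPM on day 14 in sensory nerve+ rats, and its day change differed by 3.29 ± 1.09. Phex differed by 3.18 ± 1.11, Sp7 by 2.95 ± 1.23 and Vdr by 3.35 ± 1.30. Of 17 cartilage genes 5 reached that level, again all above 0, and Col2a1 differed by 6.55 ± 1.76. In sensory nerve- rats alone 13 cartilage genes passed the filter. Dkk1, the Wnt inhibitor, differed by 4.21 ± 1.36. Rhbdl2 differed by 1.93 ± 0.45, with 8.04 to 13.7 CPM on day 14 in sensory nerve+ rats, below each sensory nerve- rat of that day. Tub (1.89 ± 0.44) and Prpsap1, a regulator of nucleotide synthesis (0.80 ± 0.18), were the other genes with the smallest p above 0.

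**Figure D5:**
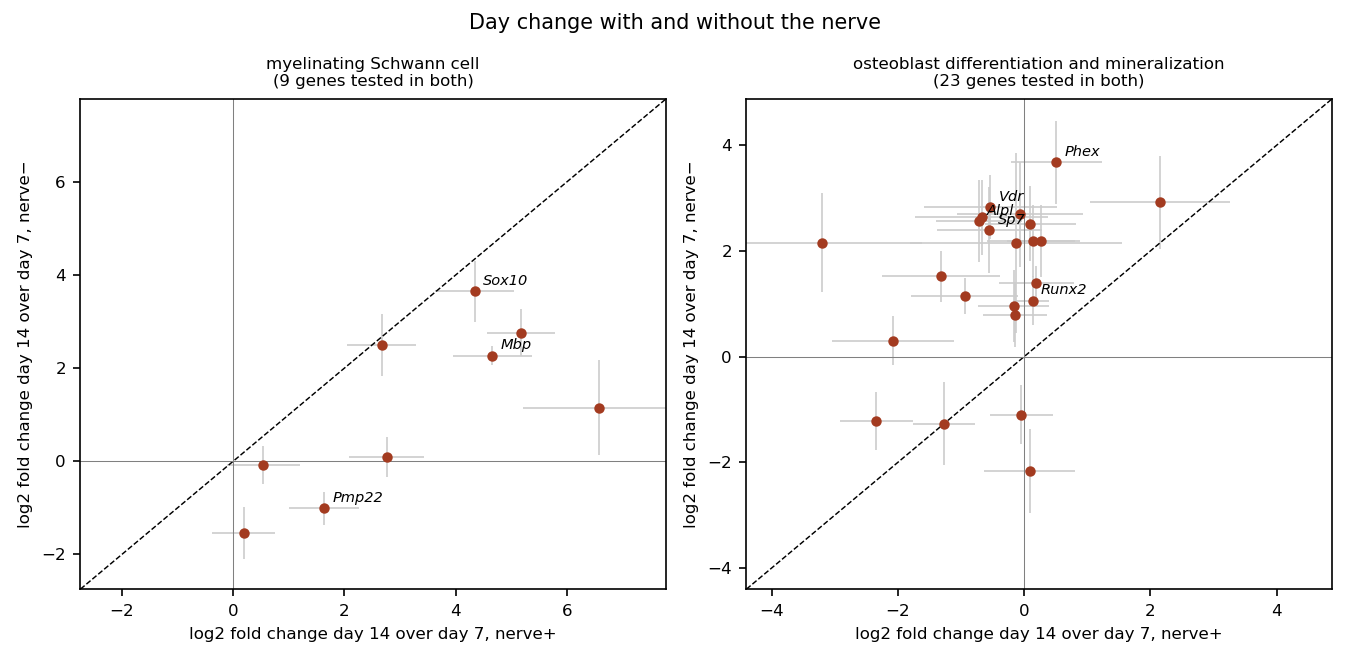
Log2 fold change of day 14 over day 7 in sensory nerve- rats against that in sensory nerve+ rats, with standard errors, for 9 myelin genes (left) and 23 osteoblast genes (right) tested in both; the dashed line marks equal change. All 9 myelin genes lie below the line, and 21 of 23 osteoblast genes lie above it.

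Muscle and erythroid lists had 0 genes at that level apart from 1 myogenic gene, although all 26 contractile and all 15 myogenic genes had the lower day change, and all 18 erythroid genes the higher, in sensory nerve- rats. The contractile medians were -2.65 without and -0.06 with the nerve. For the 17 neutrophil and 14 B cell genes tested in both groups the medians were 3.10 and 2.60 without the nerve and 3.72 and 3.29 with it. For the 15 T and NK cell genes they were 2.89 without and 1.26 with the nerve. All 15 had the higher day change in sensory nerve- rats, and 0 reached an unadjusted p under 0.05 for the difference. Ligament and fibroblast genes had medians of -0.68 and -0.66, and matrix collagens of -0.45 and -0.60, so that these lists had medians below 0 with and without the nerve.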

How the data were processed

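Bulk mRNA sequencing of the healing tissue was done by the study on the DNBSEQ platform. The authors filtered the reads and aligned them with HISAT to mRatBN7.2 (the processing notes also name Bowtie2), and deposited estimated counts per gene, 1 column per rat. The counting program is not given in the sources used here. Day 7 sensory nerve- rats were deposited in a separate table with the same 20022 genes. The counts were rounded, filtered with filterByExpr, scaled by TMM and tested with edgeR 4.0.16 (quasi-likelihood, Benjamini-Hochberg, threshold 0.05) in R 4.3.3 on the 8 sensory nerve- rats alone, on the 8 sensory nerve+ rats, and on all 16 for the difference of the day changes. The step was tested on simulated counts. DESeq2 1.42.0, other scalings, filters, a replicate block, all 23 rats and leaving out rats were alternatives. Each alternative filtered the genes anew. A list median given without a rat can therefore rest on other members than the main median. Levels are CPM after TMM over 23 rats, and list levels are means of log2(CPM + 0.5). Counting error is covered only by the spread between rats, which the labels give as separate animals, and 3 counts are taken as the limit of detection. The 8 libraries had 14854598 to 18274706 counts.

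The rats, gene lists and tests were chosen with earlier results of these data known. Named genes were, per direction, the 10 of smallest p without overlap, of described lists the first 3 and the 2 of smallest p, and the 3 of smallest p per direction for the difference. Some of these genes are not reported here. Of the listed symbols 15 were not in the tables. Sequences are from RefSeq (GRCr8), matched by symbol, and 6 motifs were searched on both strands, the E-boxes CAGCTG and CACCTG, which are also contained in the general form CANNTG, the Runx motif ACCACA, the TATAAA box and the Ets motif GGAAGTG.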

Additional observations from a re-analysis of the deposited data

Results flagged for a closer look

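In 254 groups of 4 rats, each a named gene or a list level on 1 day, the gap of the farthest rat to its nearest neighbour was divided by the range of the group, and 21 passed Dixon's critical value of 0.829 (8.27%). For independent groups of normally distributed values chance gives about 1 in 20. The genes and lists here are related, and the gene values are CPM without a log. The share of groups that passed can therefore not be set against that rate.

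On day 7, replicate 1 stood apart as the highest rat in Acta1 (ratio 0.881, 13500 CPM), Ckm (0.92, 5459 CPM) and the oxidative phosphorylation list (0.852, mean log2 level 8.33), and as the lowest in Lgmn (0.926, 325 CPM), the osteoblast list (0.881, level 4.52) and the cartilage list (0.867, level 1.98). It thus combined the highest muscle levels with the lowest bone and cartilage levels of its day. Replicate 2 was highest in Acan (0.867, 301 CPM) and Col5a1 (0.878, 2255 CPM). Replicate 3 was highest in Mymx (0.957, 38.7 CPM), Pmp22 (0.861, 151 CPM) and the enamel and dentin list (0.836, level 3.02), and replicate 4 in Ostn (0.852, 1.03 CPM).

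On day 14, replicate 3 was the highest rat in Thbs4 (0.917, 404 CPM), Acta1 (0.841, 2642 CPM), Ckm (0.886, 962 CPM) and Il6 (0.954, 10.8 CPM). It also had the largest hemoglobin share. Replicate 1 was highest in Rab11fip4 (0.949, 100 CPM) and Gfi1 (0.918, 6.22 CPM) and lowest in the list of inflammatory cytokines and chemokines (0.852, level 2.43). Replicate 2 was highest in Fam78b (0.851, 29.2 CPM) and lowest in the immediate early list (0.829, level 4.64).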

How the results depend on the processing

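The number of genes called between the days in sensory nerve- rats (2 with edgeR) was 1991 with DESeq2, 21 with library totals, 927 with all 23 rats in 1 fit, 1126 without day 7 replicate 1 and day 14 replicates 2 and 3 (chosen after seeing the data), and 0 to 814 with single rats left out. In sensory nerve+ rats (3 with edgeR) it was 325 with DESeq2, 13 with library totals and 0 to 28 with single rats left out. With a replicate block both counts were 0. The numbers were not taken to pair the rats, which are different animals, and correlations of same-numbered deviations were -0.39, -0.24, -0.24 and 0.47. Whether samples had been exchanged was not tested. Other size factors and filters left 2 and 3 calls. The difference of the day changes gave 0 calls under all alternatives run. The causes were not tested.

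Rhbdl2 and Mbp kept their direction under every alternative. They lost the call with library totals, with the block and without day 14 replicate 1 or 4 or day 7 replicate 2 or 3, and Mbp also with all 23 rats in 1 fit. The log2 fold change turned sign for Csf1r with the block (0.11) and for Il6 with the block (-0.26) and 3 rats out (-1.98). With single rats left out it ran from -1.87 to 0.44 for Acan, -0.75 to 0.15 for Col5a1, -0.33 to 0.28 for Csf1r, -0.18 to 1.29 for Ctsk, -1.28 to 1.70 for Il6 and -1.23 to 0.30 for Sfrp2. Over 17 alternatives the list median changed sign in 4 for cytokines, 4 for Wnt, 2 for endothelium and 1 each for adipocyte, cell cycle, interferon, osteoclast and osteocyte genes, and in 0 for the other lists. With single rats left out, the median ran from -0.46 to 0.13 for cell cycle, 0.30 to 0.82 for interferon and -0.50 to -0.13 for osteocyte genes. In bulk tissue with 4 rats a day, the spread between rats limits every comparison here. The coincidence of day and table limits each comparison that uses the sensory nerve- day 7 rats.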
